A study of Homo sapiens with 8 samples.

Results

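The respiratory complex I genes were taken as the protein-coding GENCODE 29 genes whose symbol starts with NDUFA, NDUFB, NDUFC, NDUFS, NDUFV or NDUFAF and goes on with a number, or is NDUFAB1. The rule gave 48 of 19864 protein-coding genes, without using any measured value. They held 7 core subunits, 10 accessory subunits of the matrix arm, 9 of the proximal and 11 of the distal membrane arm, and 8 assembly factors. The other members were NDUFA4 and NDUFA4L2, which belong with complex IV in spite of their names, and the readthrough gene NDUFC2-KCTD14. The cells were K562, an established human erythroleukaemia line, with wild-type or K700E SF3B1, and a single treatment protocol, induction of the modified allele by 1 ug/ml doxycycline, is given for all groups. The SF3B1 protein takes part in choosing the branch point ahead of each 3' splice site (acceptor). RNA was taken at day 4 and at day 8, with 2 libraries in each of the 4 groups, and the labels do not say that the libraries came from separate cultures, so p-values measure only the spread between these libraries, which may be technical.

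Complex I, the NADH:ubiquinone oxidoreductase, passes electrons from NADH through a flavin and a chain of iron-sulfur clusters in its matrix arm to ubiquinone and pumps protons through its membrane arm. The core subunits carry the redox groups and, encoded in mitochondrial DNA, the proton channels, which are not members here. Accessory subunits surround and stabilise the core, and assembly factors help to build the complex without staying in it.

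Each library held 49338071 to 77750812 uniquely mapped reads over splice junctions. Gene levels are sums over annotated introns that belong to 1 gene, in CPM (counts scaled to a common library total) with TMM factors. Erythroid markers were present, with 10 of 13 above 1 CPM in every library, and their sum was 2441 and 1995 CPM in wild type and 1984 and 1047 in K700E at day 4. A label calls the cells epithelial, and of 8 epithelial markers 4 were above 1 CPM in every library and 3, CDH1, CLDN4 and ESRP1, under 1 CPM in every library. The epithelial sum was 871 and 987 CPM in wild type and 696 and 492 in K700E at day 4. Summed megakaryocyte markers were 12.6 and 23.9 CPM in wild type and 128 and 124 in K700E at day 4, and 94.8, 74.1, 39.2 and 514 at day 8 in the order wild type 1, wild type 2, K700E 1, K700E 2, with GP1BA, GP9, PF4 and VWF under 1 CPM in every library. At day 4 these 3 sums separated the genotypes, the erythroid one narrowly, at 1995 against 1984 CPM. The lymphoid sum did too, at 10.9 and 12.0 CPM in wild type and 10.7 and 7.68 in K700E. The myeloid sum overlapped, at 165 and 164 CPM in wild type and 137 and 192 in K700E. The part of these cell types in the member values was not tested. At day 8 the genotype labels did not follow the acceptors that were used more in K700E at day 4. The median use of 150 acceptors that were called higher in K700E at day 4, each 1 to 50 nt upstream of the main acceptor, was 0.397% and 0.420% in wild type and 17.7% and 15.1% in K700E at day 4, the libraries that chose them. At day 8 the wild-type label held 0% and 15.0%, and the K700E label 0.966% and 17.1%. Day 8 values are therefore given under their labels only, and no library was moved.

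Where NDUFV1 and NDUFB11 messages differ between forms is shown first, because both parts of exons recur in the results. The capitals mark the bases that 1 form adds, in the sense of the message, from GENCODE 29 transcripts on GRCh38.
NDUFV1, the 26 nt that the upstream acceptor adds, chr11:67609426-67609451, plus strand: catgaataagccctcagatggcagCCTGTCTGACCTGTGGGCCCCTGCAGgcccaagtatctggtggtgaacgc
NDUFB11, the 30 nt of the longer exon, chrX:47142584-47142613, minus strand: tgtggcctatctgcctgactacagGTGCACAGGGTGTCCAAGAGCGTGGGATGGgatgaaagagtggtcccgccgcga
The NDUFV1 bases are not a multiple of 3 long and the NDUFB11 bases are.

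Levels of members were compared per junction, as mean unique reads over the introns of 1 principal transcript scaled to a common total of junction reads (RPM). Introns shared with another gene are included here. Only 0.488% of NDUFV2 reads and 39.3% of NDUFC2 reads lie in introns of their own, so their levels may hold reads of other genes. The levels spanned 202-fold. NDUFA4 was highest, at 90.1 ± 12.6 (SD, n = 8 libraries, range 75.8 to 106), and NDUFA4L2, its paralogue known as a hypoxia-induced gene, was lowest, at 0.445 ± 0.181. Among the core subunits NDUFV2, an iron-sulfur protein of the NADH module, was highest (54.1 ± 8.09) and NDUFS1, the largest iron-sulfur subunit, lowest (10.0 ± 1.53) over the 8 libraries, but over the 4 of day 4 NDUFS7 (6.46 ± 0.583) and NDUFS8 (7.97 ± 0.759) were below NDUFS1 (11.2 ± 1.15). In the matrix arm NDUFA5 had 20.6 ± 3.82 and NDUFV3 had 6.01 ± 1.51. In the proximal membrane arm NDUFC2 had 52.4 ± 13.9 and NDUFC1 had 4.00 ± 0.724, and in the distal arm NDUFB9 had 62.6 ± 8.33 and NDUFB3 had 7.69 ± 1.45. At day 4 NDUFB7 (4.45 ± 0.605) was below NDUFB3 (8.30 ± 1.63). Assembly factors were low as a group, with a median of 4.17 against 14.7 for core subunits. Their highest was NDUFAF4 (11.3 ± 2.34) and their lowest over 8 libraries NDUFAF5 (1.26 ± 0.294), while at day 4 NDUFAF8 had 1.22 ± 0.413 and NDUFAF5 1.37 ± 0.332. Of 47 pairs of neighbours in the order, 44 had overlapping ranges over the 8 libraries. The exceptions were NDUFA4 above NDUFB9, NDUFAF7 above NDUFAF5 and NDUFAF5 above NDUFA4L2. The order pools both days, which differ for many members.

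**Figure D1:**
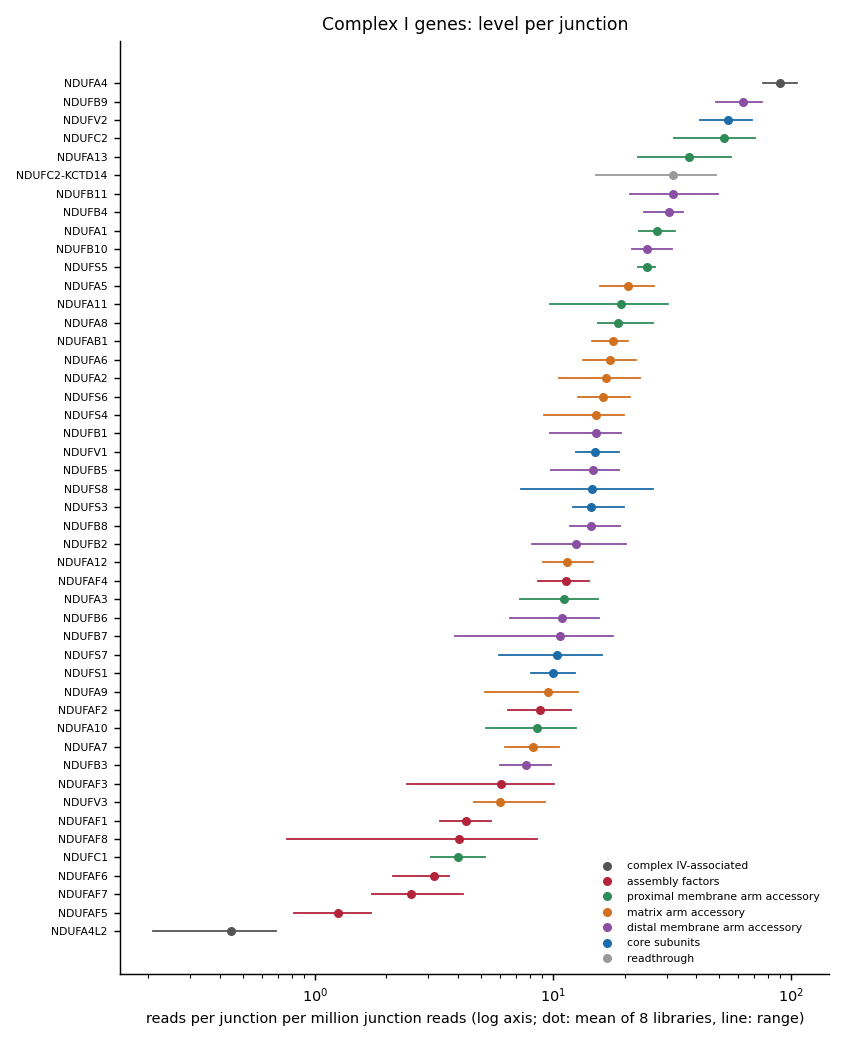
Level of the members, with 1 left out, in RPM per junction (log axis), with the mean of 8 libraries as a dot and the range as a line, coloured by role. NDUFA4 sits at 90.1 and NDUFA4L2 at 0.445, and 6 of the 8 assembly factors lie among the 10 lowest members.

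The first comparison asked whether complex I genes differed in level between K700E and wild type at day 4. No member passed the test: edgeR's quasi-likelihood test with Benjamini-Hochberg adjustment over all genes called 0 of 46 members tested, beside 0.529% of all genes (74 of 13991). By the same test 5 members (10.9%) had an unadjusted p under 0.05, a smaller share than the 21.3% of all genes. DESeq2 called 1 member, NDUFAF4 (adjusted p 0.0431), beside 11.7% of all genes. NDUFA13 and NDUFC2-KCTD14 had too few reads in introns of their own to be tested. In bulk RNA fewer cells of a type and less RNA per cell cannot be told apart. The median log2 change over members was 0.05, against 0.02 over all genes tested, and the K700E libraries were above both wild-type libraries in 18 members (27.3% of all genes) and below both in 11 (27.5% of all genes).

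The assembly factors had values above 0 in 8 of 8 members, with a median log2 change of 0.43. With total-read scaling it was 0.52, but that scaling also raised the median of all genes, from 0.02 to 0.11. Values already above 0 therefore stayed there. None passed edgeR's test. NDUFAF4, which acts early in building the ubiquinone-binding module, had 20.7 and 21.8 CPM in wild type and 29.5 and 30.8 in K700E. The log2 change was 0.51 (SE 0.16) with an adjusted p of 0.171. At day 8 it had 19.1 and 19.8 CPM under the wild-type label and 27.9 and 28.7 under the K700E label. The K700E libraries thus lay above the wild-type ones at both days, which 6 of 47 members did (4.86% of all genes), the others being NDUFA8, NDUFAB1, NDUFB2, NDUFB6 and NDUFB7. The reverse, below at both days, held for 0 members (2.97% of all genes). NDUFAF1, a factor for the intermediate of the membrane arm, had 18.8 and 17.4 CPM against 25.3 and 25.7 at day 4, and the log2 change of 0.50 (SE 0.17) had an adjusted p of 0.190. At day 8 its groups overlapped, at 15.2 and 19.4 against 21.5 and 16.1 CPM.

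The remaining assembly factors gave 3 more members with K700E above wild type without overlap at day 4. NDUFAF5, a hydroxylase of NDUFS7, had 16.7 and 14.0 against 21.5 and 20.1 CPM. NDUFAF7, a methyltransferase needed for assembly, had 29.6 and 28.2 against 33.7 and 44.0, the widest spread within K700E among the assembly factors. NDUFAF3, a partner of NDUFAF4, had 11.3 and 12.1 against 16.7 and 14.7. The log2 changes were 0.44, 0.43 and 0.43, with adjusted p from 0.266 to 0.284. NDUFAF7 was called without K700E replicate 1 (log2 change 0.61, adjusted p 0.0446), a fit that leaves 1 K700E library, takes the spread from the wild-type libraries and called 17.6% of all genes. NDUFAF8, NDUFAF2 and NDUFAF6 overlapped between genotypes, with log2 changes of 0.29, 0.08 and 0.03. A list of 12 other assembly factors of complex I had 9 above 0 and 0 called, with a median of 0.14.

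**Figure D2:**
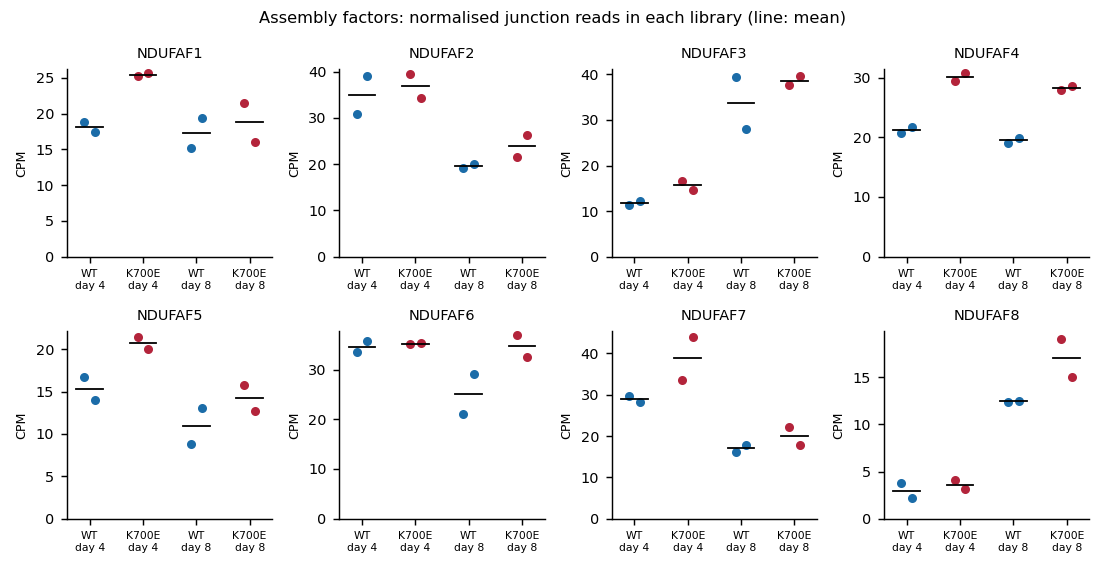
CPM of the 8 NDUFAF assembly factors in each library (dots; line, mean of 2) by genotype and day, with every axis starting at 0. NDUFAF4 is separated by genotype label at both days, NDUFAF1 at day 4 only, and NDUFAF3 and NDUFAF8 stand higher at day 8 in every library.

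Matrix arm accessory subunits lay mostly on the other side at day 4, with 3 of 10 above 0 and a median of -0.23 (4 of 10 and -0.13 with total-read scaling), and none was called. Under the day 8 labels 7 of 10 were above 0, with a median of 0.21, and for the mean of both days 5 of 10. NDUFA12, which sits beside NDUFS4 and NDUFS6 and replaces an assembly factor late in assembly, had 44.3 and 42.5 CPM in wild type and 32.1 and 31.7 in K700E. Its log2 change was -0.44 (SE 0.14, adjusted p 0.173). NDUFS4, mutated in Leigh syndrome, had 79.4 and 97.0 against 76.2 and 65.5 CPM, and NDUFS6, a zinc-binding subunit, 50.2 and 52.3 against 43.6 and 42.2. Both lay below wild type without overlap, with log2 changes of -0.31 and -0.25 (adjusted p 0.324 and 0.335). NDUFA5 overlapped, at 107 and 130 against 108 and 83.7 CPM (log2 change -0.30, adjusted p 0.396). In the other direction NDUFA9, which binds NADPH near the ubiquinone site, had 11.8 and 13.8 against 16.3 and 17.9 CPM. Its log2 change was 0.42 (adjusted p 0.295), and with introns shared with other genes counted it was 0.44, at 84.3 and 102 against 122 and 128 CPM.

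Membrane arm subunits were split, with 4 of 8 proximal and 7 of 11 distal members above 0. NDUFA10, a proximal subunit with a nucleoside kinase fold, had 90.2 and 93.3 CPM in wild type and 123 and 118 in K700E. Its log2 change of 0.40 (SE 0.12) had the lowest adjusted p of all members, 0.155. NDUFB11, an X-linked distal subunit whose loss causes a skin and eye disorder, had 77.6 and 79.9 against 60.9 and 57.9 CPM. Its log2 change was -0.40 (SE 0.12) with an adjusted p of 0.158. Both genotypes were separated at these genes. NDUFB8, often probed on blots because it is unstable when complex I is not assembled, had 17.5 and 20.2 against 13.6 and 14.4 CPM in its own introns (log2 change -0.43, adjusted p 0.273). With shared introns it had 57.6 and 61.9 against 46.9 and 49.5 CPM (log2 change -0.29, adjusted p 0.265). On the same count NDUFA11 had a log2 change of 0.10, as in its own introns, and NDUFA7, a matrix arm subunit, 0.10 against -0.04 in its own, with neither called. NDUFB3 had 37.1 and 31.5 against 43.1 and 45.3 CPM (log2 change 0.37, adjusted p 0.259).

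Of the core subunits 4 of 7 were above 0, with a median of 0.01. NDUFS7, which carries the last iron-sulfur cluster, had 58.9 and 51.6 against 49.2 and 46.0 CPM (log2 change -0.21, adjusted p 0.448). NDUFV2 shows how shared introns matter: in its own introns it had 3.32 and 3.27 against 2.37 and 1.95 CPM (log2 change -0.60, adjusted p 0.309), and with introns shared with another gene counted it had 437 and 445 against 389 and 480 CPM, a log2 change of 0.00. The first set of values did not overlap and the second did, and nearly all NDUFV2 reads lie in the second set.

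**Figure D3:**
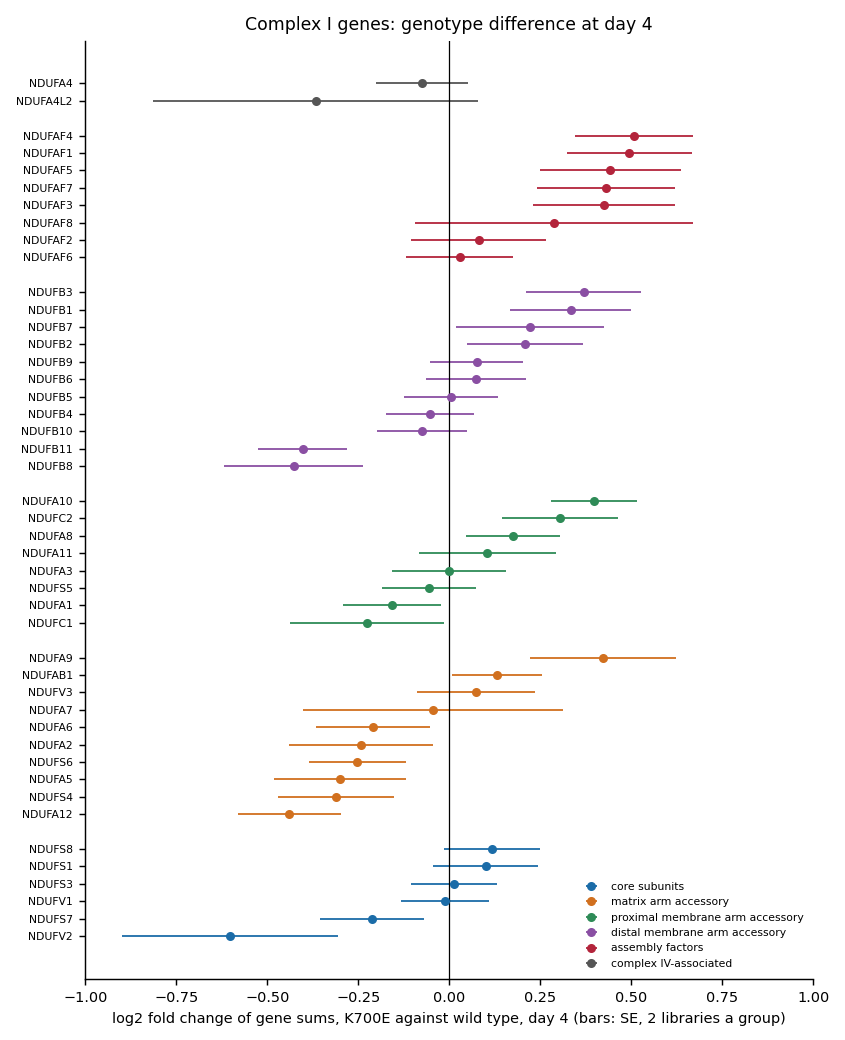
Log2 fold change of K700E against wild type at day 4 for the members tested, with 1 left out and SE bars, grouped by role. The 8 assembly factors lie at or above 0.03, 7 of 10 matrix arm accessory subunits lie below 0, and no member passed the test.

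Other parts of the respiratory chain gave the same count at day 4. edgeR called 0 of 7 genes of complex II, 0 of 15 of complex III, 0 of 30 of complex IV and 0 of 20 of ATP synthase, with 2, 3, 3 and 4 at an unadjusted p under 0.05 and medians of 0.06, 0.07, 0.05 and -0.08. Regulators of respiratory genes had 0 of 12 called and a median of 0.39, with 6 at an unadjusted p under 0.05 (21.3% of all genes). That list was split, with 7 of 12 above 0 and log2 changes from -0.47 in NRF1 to 0.86 in TFB1M.

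The second comparison put the labelled genotypes side by side at day 8. edgeR called 0 of 47 members (0% of all genes), with 1 at an unadjusted p under 0.05 (2.92% of all genes), and DESeq2 called 0 (0.143% of all genes). Of the members 37 of 47 were above 0 (51.0% of all genes), with a median of 0.19 against 0.01 for all genes. Other parts of the respiratory chain leaned the same way. Above 0 were 6 of 7 genes of complex II, 11 of 15 of complex III, 20 of 30 of complex IV and 16 of 20 of ATP synthase. Their medians were 0.05, 0.33, 0.14 and 0.21. K700E-labelled libraries lay above both others in 17 members (19.8% of all genes) and below both in 2 (12.4%). At day 8 the genotype labels coincide with run folders, so label and folder cannot be told apart there, nor in the parts of the results below that rest on day 8. For the mean of both days edgeR called 0 of 47 (0% of all genes), with 4 unadjusted (9.28% of all genes). DESeq2 called NDUFAF4 there (log2 change 0.51, adjusted p 0.0232), beside 0.718% of all genes. For the difference of the genotype change between days, edgeR called 0 of 47 members (0% of all genes), with 4 unadjusted (9.2% of all genes). DESeq2 called NDUFA12 for it (1.30% of all genes). NDUFA12, NDUFB11 and NDUFS7 lay below wild type at day 4 and above it at day 8 without overlap, 6.38% of members beside 5.14% of all genes, and 0 members did the opposite (3.17%). The spread within groups, as the biological coefficient of variation, was 0.277 at day 4 and 0.516 at day 8.

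The third comparison asked which acceptors of complex I genes differed at day 4. Of 205 acceptors at 88 donors, 1 was called, at an adjusted p under 0.05 and a change of 5 percentage points (0.468% of all acceptors), and 3 had an adjusted p under 0.05 by edgeR (0.760% of all acceptors). All of these were used more in K700E, and they lay in NDUFAF6, NDUFV1 and NDUFB8.

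NDUFAF6, a factor needed for early assembly, used an acceptor on chromosome 8 that GENCODE 29 does not hold. Wild type had 0 and 0 reads there and K700E 22 and 23, or 44.0% and 53.5% of its donor's reads (adjusted p 0.0149 by edgeR). This donor is weakly used: the whole gene had 2526 and 2123 reads over annotated introns in these K700E libraries. The share is thus of the donor and not of the gene's message. The 95% Wilson intervals of the K700E libraries start at 31.2% and 38.9%. The acceptor, whose intron ends at 94987649, opens an exon of 127 nt (GRCh38, 94987650 to 94987776, plus strand) that lies 708 nt upstream of an annotated acceptor, that of exon 2 of the noncoding transcript NDUFAF6-214. Junctions out of this exon had 3 and 3 reads in wild type and 53 and 58 in K700E, 13.0% and 11.5% against 79.1% and 95.1% of the reads leaving it or skipping it. In the test of donors this had an adjusted p of 0.178. At day 8 the junctions out had 0 and 41 reads under the wild-type label and 0 and 23 under the K700E label. Junctions into the exon from the same donor, at this acceptor and others near it, had 0 and 0 reads in wild type and 28 and 37 in K700E at day 4. Reads into and out of the exon thus did not match in any day 4 library. In wild type replicate 2 at day 8 there were 0 reads in and 41 out. The share of reads out is therefore not the use of this acceptor alone. The gene as a whole did not separate by genotype at day 4, at 33.5 and 35.9 against 35.2 and 35.4 CPM.

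NDUFV1, the flavin-bearing subunit that binds NADH, used an acceptor 26 nt upstream of the main one, which adds the capitals printed above to a coding exon. It had 0 and 1 reads in wild type and 46 and 14 in K700E, or 0% and 0.0835% against 3.25% and 1.29% of its donor's reads (adjusted p 0.0149). At day 8 the shares were 0.588% and 2.03% under the wild-type label and 0.0835% and 3.75% under the K700E label. The change at day 4 was 2.23 percentage points, so the main acceptor kept nearly all reads.

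NDUFB8 used an unannotated acceptor on chromosome 10 at 100527095, 20 nt upstream of the main acceptor of a coding exon, the third of 5. It had 1 and 0 reads in wild type and 28 and 17 in K700E, or 0.108% and 0% against 2.59% and 1.80% (adjusted p 0.0174). At day 8 it had 0 and 30 reads under the wild-type label and 0 and 18 under the K700E label. The library labelled wild type day 8 replicate 2 was thus the highest of the 8 for NDUFB8, at 3.33%, and the third highest for NDUFV1.

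**Figure D4:**
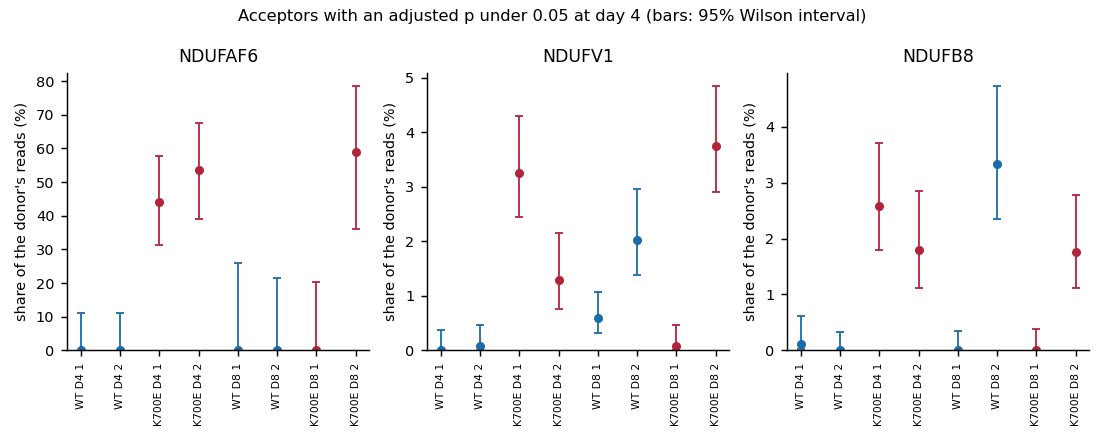
Use of the 3 acceptors with an adjusted p under 0.05 at day 4, as the percentage of the donor's reads in each of the 8 libraries with 95% Wilson intervals, which cover counting error only. NDUFAF6 reaches 44.0% and 53.5% of the reads of a weakly used donor in K700E at day 4. NDUFV1 reaches 3.75% and NDUFB8 3.33%, and wild type day 8 replicate 2 is high for these 2.

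These calls rest on few reads and few libraries. limma diffSplice called 0 members, as did the contrast in the 8-library model and each fit without 1 of the 4 libraries, and the NDUFAF6 acceptor cannot meet the read minimum when a K700E library is left out. With at least 10 reads per junction, or with replicate number as a block, it stayed called (adjusted p 0.00725 and 0.0488).

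Acceptors 1 to 50 nt upstream of the main one, the class known to respond to SF3B1 hotspot substitutions, numbered 9 in 7 members. By edgeR 2 of 9 were higher at an adjusted p under 0.05 (22.2%), beside 229 of 2523 in all genes (9.08%). With the 5-point rule 0 of 9 were called higher, beside 150 of 2523 in all genes (5.95%). Besides those of NDUFV1 and NDUFB8 the 9 included sites in NDUFA2, NDUFAF5, NDUFB5 and NDUFS1. At these sites the change ran from -0.17 to 1.12 points and no adjusted p was under 0.05. Pooled over the 9, their share of donor reads was 1.60% and 0.914% in wild type and 2.24% and 1.76% in K700E at day 4, and 1.49%, 2.42%, 1.76% and 2.21% at day 8 in the order wild type 1, wild type 2, K700E 1, K700E 2.

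At day 8 edgeR called 0 of 207 member acceptors (0% of all acceptors), and limma diffSplice called 0. Unadjusted, 7 had a p under 0.05 by edgeR, beside 1765 of all 63314 acceptors. In the test of donors at day 4 edgeR called 0 of 214 member junctions (0.0309% of all, or 0.0573% with no minimum change), and limma called 0. Unadjusted, 10 had a p under 0.05 by edgeR, beside 3649 of all 64625 junctions.

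Of the 205 member acceptors 23 differed in use by 5 points or more at day 4, the called one included, and of the 214 donor junctions 27. The share among all junctions was not counted, so these numbers say nothing particular about members. The sites below did not pass the test. NDUFV3 is an accessory subunit of the matrix arm with a long and a short isoform. It used an unannotated acceptor after its long exon in 45.1% and 45.9% of reads in wild type at day 4. In K700E at day 4 the share was 56.5% and 56.6% (adjusted p 1.00 by edgeR). At day 8 the 4 libraries lay between 39.7% and 43.9%, below all 4 of day 4. Its long exon of 1095 nt, on chromosome 21 from 42903182 to 42904276, was entered rather than skipped in 55.6% and 60.0% against 52.1% and 52.4% of reads at day 4. At day 8 it was entered in 68.4% to 85.6% of reads.

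NDUFB11 chose between donors 30 nt apart, which give the 2 forms printed above. The donor of the shorter exon took 59.7% and 60.6% in wild type and 65.3% and 66.3% in K700E at day 4, separated but with an adjusted p of 1.00. At day 8 it took 65.6% to 69.5%, with the labelled groups overlapping. Differences of 5 points or more also occurred at acceptors of NDUFAF1, NDUFAF5, other sites of NDUFAF6, NDUFAF7, NDUFS3 and NDUFV1, and at donors of NDUFAF1, NDUFAF5, NDUFAF7, NDUFAF8, NDUFC1 and NDUFV1, with no adjusted p under 0.05. In NDUFC1 an alternative first exon had 40.0% and 27.8% of reads in wild type and 18.3% and 7.69% in K700E (adjusted p 0.744).

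The fourth comparison set day 8 against day 4 over both genotypes. Here 19 of 47 members were called by edgeR, beside 36.0% of all genes, with 11 higher (18.1% of all genes) and 8 lower (18.0%) at day 8. The folders named in the file headers place all 4 day 4 libraries in 1 run folder and the day 8 libraries in others, split by genotype label, so day and folder cannot be told apart. With total reads in place of TMM the split was 16 higher and 4 lower, and the median of all genes moved from 0.00 to 0.17. DESeq2 called 26 members, beside 42.6% of all genes. Without wild type day 4 replicate 2 the count was 10, and without K700E day 4 replicate 2 it was 11, and those fits called 18.3% and 24.2% of all genes.

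The 3 highest changes were in NDUFAF8, NDUFB7 and NDUFAF3. NDUFAF8, a partner of NDUFAF5, had 3.81, 2.14, 4.09 and 3.15 CPM in the day 4 libraries and 12.4, 12.5, 19.1 and 15.0 in the day 8 libraries. Its log2 change of 2.17 (SE 0.25) had an adjusted p of 0.00131 by edgeR. NDUFB7, a twin-cysteine subunit of the intermembrane space, had 8.96, 9.58, 11.2 and 10.3 CPM at day 4 and 32.1, 32.8, 34.5 and 35.1 at day 8 (log2 change 1.77, adjusted p 0.000674). In both genes every day 8 library lay above every day 4 library. NDUFAF3 rose by 1.43, NDUFS8, a ferredoxin-like core subunit, by 1.24, NDUFA11 by 1.04 and NDUFS7 by 0.98. NDUFA3, NDUFA2, NDUFB2, NDUFB11 and NDUFB1 rose by 0.62, 0.58, 0.58, 0.48 and 0.39. The call of NDUFB1 was lost with edgeR's replicate block (adjusted p 0.0524) and in 9 of 13 alternatives in all. Those of NDUFB2 and NDUFB11 were lost in 5 of 13 each, and that of NDUFA2 in 3. With shared introns counted NDUFA13, known also as GRIM-19, rose too, from 94.0 to 103 CPM at day 4 to 168 to 202 at day 8 (log2 change 0.90, adjusted p 0.00104). NDUFC2 had 0.51 on that count (adjusted p 0.0145) but -0.38 in its own introns (adjusted p 0.229). NDUFC2-KCTD14 had 1.13, and the 2 genes share introns whose reads cannot be told apart.

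The members that fell at day 8 included NDUFAF7 (log2 change -0.85), NDUFB5 (-0.82) and NDUFA10 (-0.79). NDUFB5 had 98.3, 111, 103 and 107 CPM at day 4 and 51.0, 65.2, 68.0 and 50.6 at day 8 (adjusted p 0.00515), and NDUFA10 had 90.2 to 123 and 46.7 to 74.6. NDUFV2 in its own introns had -1.07, and -0.50 (adjusted p 0.0179 by edgeR) with shared introns, and its call was lost in 8 of 13 alternatives. NDUFAF2, a paralogue of NDUFA12 that acts in assembly, had -0.71, and the iron-sulfur subunit NDUFS1 had -0.49. Their calls were lost in 1 and 4 of 13 alternatives. NDUFAB1, the mitochondrial acyl carrier protein, had -0.33 (adjusted p 0.0449), a call lost in 10 of 13 alternatives, the replicate block among them (adjusted p 0.0565).

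Members on the 2 sides differed in structure. The 11 higher members spanned a median of 6.03 kb and had transcripts of 60.2% GC, while the 8 lower ones spanned 27.3 kb and had 44.2% GC. All genes gave the same order, with 17.4 kb and 58.7% for higher and 48.9 kb and 41.8% for lower genes. Spearman's correlation of the log2 change with GC content was 0.68 over the 47 members and 0.53 over all 14902 genes, as a description across genes measured in the same libraries. The part of GC content or length in the day difference was not tested.

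**Figure D5:**
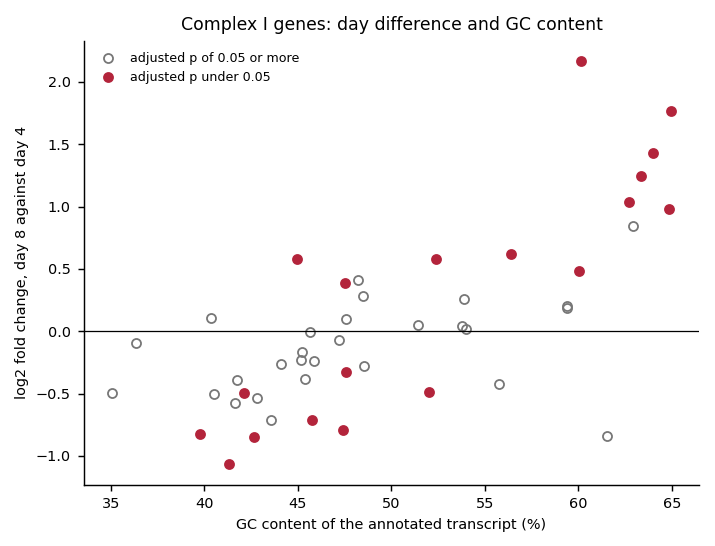
Log2 fold change of day 8 against day 4 for the 47 members tested, against the GC content (%) of 1 annotated transcript per gene, with members at an adjusted p under 0.05 filled. The 11 higher members have a median of 60.2% GC and the 8 lower ones 44.2%.

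As a share of all junction reads, members took 3150 and 3148 RPM in wild type and 3449 and 3479 in K700E at day 4, and 3461 and 3455 against 3749 and 4043 under the labels at day 8. This total includes introns shared with other genes and does not carry the TMM factors, so it is not on the scale of the gene sums. In the gene sums the median member change at day 4 was 0.05 with the TMM factors. Without the factors it was 0.15, beside 0.11 for all genes.

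Promoters of 40 members were found in the RefSeq table (GRCh38.p14), as 250 bases before to 50 after the start. The NRF1 motif GCGCATGCG, on either strand, was in 5 of 40 (12.5%) against 2.10% of 27305 promoters, and its part GCATGCGC, which overlaps it, in 17.5% against 3.27%. The YY1 motif AAGATGGCG was in 12.5% against 1.85% and the ETS motif CCGGAAGT in 5% against 4.44%. NRF1 and YY1 are known activators of nuclear genes for respiration. The excerpts below show the NRF1 letters in capitals in the 5 members that hold them.
NDUFA8, chr9:122159755-122159803, minus strand: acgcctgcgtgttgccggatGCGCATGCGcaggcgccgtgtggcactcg
NDUFAF5, chr20:13785004-13785052, plus strand: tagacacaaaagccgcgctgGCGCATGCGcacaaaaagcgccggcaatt
NDUFB4, chr3:120596157-120596205, plus strand: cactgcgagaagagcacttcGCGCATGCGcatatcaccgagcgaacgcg
NDUFS6, chr5:1801341-1801389, plus strand: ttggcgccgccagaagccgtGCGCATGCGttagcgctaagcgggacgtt
NDUFS7, chr19:1383813-1383861, plus strand: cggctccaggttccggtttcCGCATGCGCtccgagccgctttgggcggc
The day 4 log2 changes of these members were 0.18, 0.44, -0.05, -0.25 and -0.21 in the order printed, and none was called. Of the 5 only NDUFS7 was called for the day difference. Whether they moved together was not tested. A match is a description of letters and not of binding.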

How the data were processed

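Total RNA of 8 libraries was sequenced on strand-specific libraries, per the labels' protocols. The submitters' processing notes name cutadapt, STAR and hg38. STAR 2.7.0e was run with GENCODE 29 junctions in the index and GENCODE 22 added at mapping, per the file headers. The deposited values used are counts of uniquely mapped reads over each splice junction, not normalized. Other deposited columns (motif code, annotation flag, overhang) were used as descriptions. Per the file headers, the minimum overhang was 12 nt for canonical junctions outside the annotation, and reads mapping to more than 10 loci were dropped.

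Counts were summed per gene over annotated introns of 1 gene. Introns of more than 1 gene held 4.17% of reads and were left out of these sums. They were kept in the levels per junction and in the members' share of all junction reads. Sums with them are given as an alternative for members with under 75% of reads in introns of their own. Unspliced genes are not measured. Genes were tested with edgeR 4.0.16 (TMM, filterByExpr, quasi-likelihood test) on the whole table, with DESeq2 1.42.0 as an alternative. Acceptors and donors were tested with edgeR's diffSpliceDGE, with limma 3.58.1 as an alternative, where junctions had 5 unique reads in at least 2 libraries and the shared site had 2 such junctions and a mean of 20 reads. They were called at an adjusted p under 0.05 and a change of 5 percentage points. Intervals of shares are 95% Wilson intervals and cover counting error only. GC content is of the longest protein-coding transcript. Library depth ran from 49338071 to 77750812 reads. Values were given for members called at gene level or, up to 8 a direction, with the lowest unadjusted p at day 4, for members with an acceptor or donor called or differing by at least 5 points, for the highest and lowest level of each role group, and for members without overlap at day 4 whose log2 change exceeded 0.5 in size. The members and lists were chosen with earlier results of these data known. The gene-level and acceptor steps were tested on simulated data. The simulated acceptor changes lay only at donors with many reads, so weakly used donors such as that of NDUFAF6 were not covered. The results of 1 member are not reported here by name, although it is in the counts.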

Additional observations from a re-analysis of the deposited data

Results flagged for a closer look

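In 3 members the K700E libraries lay below both wild-type libraries at day 4 and above both at day 8, under the labels. That is 6.38% of members, near the 5.14% of all genes, and the 3 are named because they did so. In NDUFA12 the log2 change went from -0.44 to 0.58, a difference of 1.07 (SE 0.24, unadjusted p 0.00258, adjusted p 0.472 by edgeR's interaction term), and DESeq2 gave an adjusted p of 0.0213. NDUFB11 went from -0.40 to 0.46, a difference of 0.91 (adjusted p 0.472), and NDUFS7 from -0.21 to 0.33, a difference of 0.60 (adjusted p 0.513). edgeR called 0 of 47 members for the interaction (0% of all genes), with 4 at an unadjusted p under 0.05 (9.2% of all genes). The day 8 labels did not follow the acceptors used more in K700E at day 4, and at day 8 they coincide with run folders, so these are differences between labelled groups.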

How the results depend on the processing

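Gene-level calls among members rest on 2 libraries per group. DESeq2 called 1 member at day 4, 1 for the mean of both days and 1 for the interaction, where edgeR called 0. Of all genes edgeR called 74 at day 4, DESeq2 1640, edgeR with no expression filter 1567 and with the block 126, the 8-library contrast 0, and fits without 1 library 0 to 2536. Leaving out 1 library gave 0 to 1 at day 4, and 10 to 20 for the day difference. The NDUFAF6 acceptor call was lost (0 called) with limma diffSplice, in the contrast of the 8-library model and in each of the 4 fits without 1 library. Its change was 42.9 to 48.7 points wherever it could be tested, which was not so in the 2 fits without a K700E library. With total reads instead of TMM, an alternative chosen after seeing the data, the median member change at day 4 was 0.15. Leaving out 1 library moved it between -0.03 and 0.07. With all annotated introns in place of 1 transcript, the level of NDUFA4 was 67.6 and of NDUFA4L2 0.241 RPM per junction. The replicate numbers do not establish a pairing (correlation of same-numbered deviations 0.10 at day 4 and 0.27 at day 8). With a replicate block edgeR called 0 members at day 4, 0 at day 8 and 19 for the day difference, and the acceptor count stayed at 1. Of 160 alternative fits of the 16 gene-level results named at day 4, none of them called, 158 kept direction and stayed uncalled and 2 made a call. Of 18 fits of the 3 acceptors 6 kept the adjusted p under 0.05 and 12 did not. For the 19 members called for the day difference 195 of 247 fits kept call and direction, 52 lost the call and 0 reversed. Junction reads measure only spliced RNA, and acceptors of weakly used donors rest on few reads.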
